A study of Mus musculus with 3 samples.

Results

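A set of 8 keratin genes, the simple keratins Krt7, Krt8, Krt18, Krt19 and Krt20, the intermediate-layer pair Krt4 and Krt13, and Krt23, was followed in the epithelium that lines the mouse bladder (urothelium). They are 8 of the 31053 genes in the matrices and 8 of 53 keratin genes there, and they were chosen by name. The data were droplet-based 3' single-cell RNA sequencing counts from 3 libraries, 1 of wild-type mice, 1 of Lpar6 knockout mice and 1 of Cab39l knockout mice. Each library pooled urothelial cells of 15 mice, released by trypsin inside the bladder. The sources used here give neither strain nor age nor which part of each gene was deleted. Cells counted as urothelial when they held at least 10000 molecules (UMIs, tags that mark each captured RNA once), at most 20% mitochondrial UMIs, and at least 0.2% of UMIs from the uroplakin genes Upk1a, Upk1b, Upk2 and Upk3a. This kept 2887 wild-type, 4670 Lpar6 knockout and 5171 Cab39l knockout cells, 12728 of 25784 barcodes.

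Keratins build the intermediate filaments of epithelial cells, and each filament needs a type I keratin paired with a type II keratin. Krt18, Krt19, Krt20, Krt13 and Krt23 are type I, and Krt7, Krt8 and Krt4 are type II. Krt8 with Krt18 is the founding pair of simple epithelia, and Krt7 and Krt19 join it in many glandular and lining epithelia. Krt20 is a marker of the superficial umbrella cells of the urothelium. Krt4 with Krt13 is the pair of the layers above the basal one in stratified epithelia without a horny layer. Basal urothelial cells use Krt5 with Krt14 or Krt15. Uroplakins form the plaques on the surface of umbrella cells and accumulate as urothelial cells mature.

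The members lie in both keratin clusters of the mouse genome. Krt7, Krt8, Krt4 and the type I gene Krt18 are on chromosome 15, and Krt19, Krt20, Krt13 and Krt23 are on chromosome 11. Krt18 is the type I gene that sits in the type II cluster, 23697 bases from the end of Krt8 (GENCODE vM21, GRCm38). RefSeq sequence before the start site was found for 6 of the 8 members, and Krt19 and Krt4 had no entry. Krt13 has 2 RefSeq starts, and the stretch before the upstream one is shown. The 4 stretches below show the neighbouring pair Krt8 and Krt18, the umbrella-cell keratin Krt20 and the scarcely detected Krt13. They are given 5' to 3' on the gene's own strand, from GRCm38.p6, each ending before the first base of the gene as annotated, with matches to the motifs searched in capitals. Krt8 is read from chr15:102004483-102004592 on the minus strand, Krt18 from chr15:102027966-102028179 on the plus strand, Krt20 from chr11:99438154-99438403 and Krt13 from chr11:100121567-100121816, both on the minus strand.
Krt8: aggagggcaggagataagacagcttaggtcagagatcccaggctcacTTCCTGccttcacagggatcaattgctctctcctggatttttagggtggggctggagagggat
Krt18: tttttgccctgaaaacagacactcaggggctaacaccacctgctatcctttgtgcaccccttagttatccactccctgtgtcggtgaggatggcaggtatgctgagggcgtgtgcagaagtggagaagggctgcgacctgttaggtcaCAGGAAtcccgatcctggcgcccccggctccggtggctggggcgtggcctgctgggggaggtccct
Krt20: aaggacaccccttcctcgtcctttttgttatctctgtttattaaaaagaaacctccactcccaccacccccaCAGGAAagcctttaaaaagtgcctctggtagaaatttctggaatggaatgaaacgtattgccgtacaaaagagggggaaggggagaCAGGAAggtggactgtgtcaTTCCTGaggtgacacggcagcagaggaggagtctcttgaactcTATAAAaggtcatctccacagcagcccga
Krt13: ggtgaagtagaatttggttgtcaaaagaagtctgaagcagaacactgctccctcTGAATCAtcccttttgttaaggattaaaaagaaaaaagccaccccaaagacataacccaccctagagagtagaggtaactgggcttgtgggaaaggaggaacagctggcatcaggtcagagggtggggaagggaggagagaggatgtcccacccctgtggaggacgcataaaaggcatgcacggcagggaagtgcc
A search for 5 motifs was made on both strands of the 250 bases before each start: TATAAA (the box bound by TBP), GGGCGG (the site of Sp1), TGANTCA (a loose form of the AP-1 site that allows any middle base), AACNGGTT (bound by grainyhead factors) and CAGGAA (bound by ETS factors). No 2 matches overlap in the stretches shown. Of the 6 members searched, TATAAA was found before Krt20, where it begins 29 bases before its start, and 12.4% of the 32851 mouse promoter windows of this length hold it on either strand. CAGGAA was found 3 times before Krt20 and 1 time each before Krt7, Krt8, Krt18 and the second start of Krt13, and 25.7% of all windows hold it. TGANTCA was found 1 time before the first start of Krt13, as TGAATCA, and 2 times before the second, both as TGACTCA. Of all windows, 6.75% hold the loose form. Krt7 had 4 copies of GGGCGG, against 32.7% of windows with at least 1, and AACNGGTT, in 1.79% of windows, was before none of the 6. These are matches of letters and not measured binding.

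The urothelial cells held 76259491, 127349128 and 157714773 UMIs in the wild-type, Lpar6 knockout and Cab39l knockout libraries, with medians of 23652, 27339.5 and 30904 per cell. Median mitochondrial shares were 8.68, 6.25 and 6.12%. Lpar6 had 1039, 0 and 1902 UMIs in that order, and Cab39l was at 112, 94.0 and 31.6 counts per 1e6 UMIs (CPM), so Cab39l tags were reduced but present in the library labelled Cab39l knockout. The summed basal markers (Krt5, Krt15, Krt14, Trp63, Itga6) stood at 1579, 517 and 1569 CPM, and Krt14, which defines many basal cells elsewhere, had 0, 1 and 0 UMIs. Krt15 was the largest part of this sum, at 1076, 208 and 1121 CPM. Trp63 (155, 94.5 and 96.8 CPM) and Itga6 (51.7, 29.5 and 30.4 CPM) were lower in both knockouts than in wild type. All 8 immune markers had UMIs, summing to 59.7, 25.6 and 41.7 CPM, with erythroid markers at 287, 125 and 50.5 CPM and male gland markers at 12.3, 2.91 and 315 CPM. Between 16 and 19 barcodes were shared by any pair of libraries, 2 to 8 of them among urothelial cells. With 1 library per group there is no test. Intervals are 95% and cover counting error only, and a difference between libraries cannot be told apart from one between pools of mice or preparations.

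Krt18, Krt7, Krt19 and Krt8 made up nearly all of the signal, and they were high in every library. Krt18, the type I partner of Krt8, was the most abundant, at 2610 CPM (95% interval 2599 to 2622) in wild type, 2931 with Lpar6 deleted and 2950 with Cab39l deleted. Krt7, a type II simple keratin, followed at 2383, 2090 and 2496 CPM. Krt19, the smallest keratin and one that lacks most of the tail domain, stood at 1840, 1685 and 1884 CPM. Krt8, the type II founder of the simple keratins, stood at 1282, 1206 and 1292 CPM. A 3' tag counts molecules, so these levels were not divided by transcript length. The order Krt18, Krt7, Krt19, Krt8 was the same in the 3 libraries, and the counting intervals of neighbours in the order did not overlap. Together the 8 members held 8267, 7997 and 8764 CPM, which was 85.1, 94.6 and 85.2% of all keratin UMIs. The most abundant of the other keratins was the basal keratin Krt15, at 1076, 208 and 1121 CPM, with Krt5 at 296, 186 and 321 CPM.

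The other members were far lower. Krt4 stood at 62.7 CPM (60.9 to 64.5) in wild type, 25.2 with Lpar6 deleted and 78.7 with Cab39l deleted. Krt20 stood at 53.6 CPM (52.0 to 55.3), 42.8 and 32.1. Krt23, a type I keratin found in some glandular epithelia, stood at 33.7 CPM (32.4 to 35.0), 15.7 and 29.7. Krt13, the usual partner of Krt4, had 83, 169 and 114 UMIs, or 1.09, 1.33 and 0.723 CPM. Krt4 ranked above Krt20 in wild type and the Cab39l knockout and below it in the Lpar6 knockout, again without overlap of the intervals. Krt8 was 20.5 times as abundant as Krt4 in wild type.

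**Figure D1:**
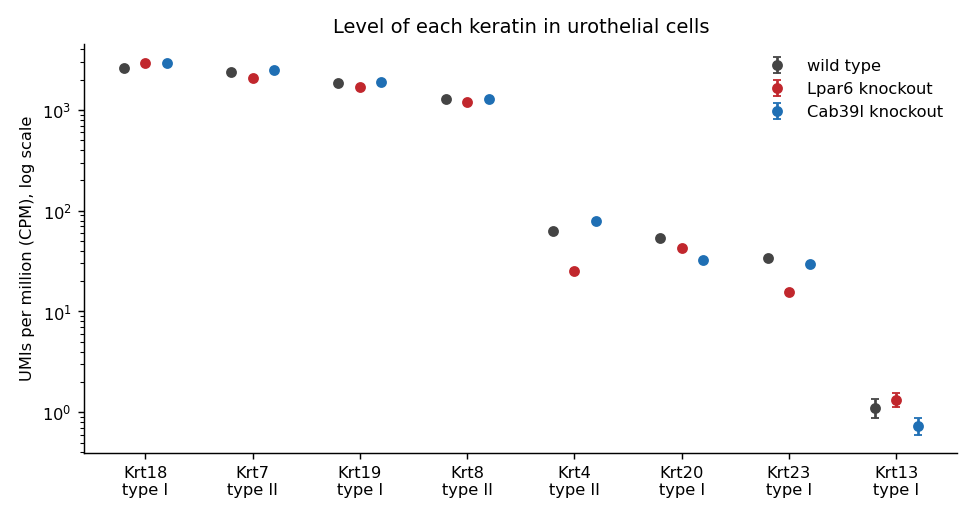
CPM of each keratin (log axis) in the urothelial cells of the 3 libraries, with exact 95% Poisson intervals, most of which are narrower than the points. Krt18, Krt7, Krt19 and Krt8 lie above 1200 CPM in every library, Krt4, Krt20 and Krt23 between 15.7 and 78.7 CPM, and Krt13 near 1 CPM.

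Features of the genes themselves bear on these counts. The last 400 bases of the longest Krt7 transcript match 40 other annotated genes over at least 100 bases at 90% identity or more, and those of Krt18 match the pseudogene Gm5200, while the other 6 members have no such match. Krt7 overlaps the antisense gene Gm671 and Krt8 overlaps the lincRNA Gm36026 on the opposite strand, and the sources used here do not say whether the authors' counting used strand. The Krt7 and Krt18 levels are uncertain to that extent.

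Tags of the abundant keratins were found in nearly every urothelial cell. With every cell reduced by random draws to 10000 UMIs (thinned), Krt7, Krt8, Krt18 and Krt19 had at least 1 UMI in 99.8% or more of cells in every library. Krt20 had a UMI in 32.8, 29.8 and 23.1% of wild-type, Lpar6 knockout and Cab39l knockout cells, against 56.4, 53.8 and 45.2% without thinning. Krt4 had one in 22.5, 11.6 and 26.9% of cells (31.0, 18.5 and 39.4% without thinning). Krt23 had one in 20.8, 13.2 and 17.0% (37.3, 28.4 and 35.9% without thinning), and Krt13 in 0.866, 1.67 and 0.851% (2.04, 3.25 and 2.01% without thinning). The exact binomial interval was 21.0 to 24.1% for Krt4 in wild type and 10.7 to 12.6% in the Lpar6 knockout.

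Immune-marked barcodes, which should not express keratins, gave the background of free RNA. Their median depths were 3498, 3228 and 3449 UMIs in 528, 51 and 217 barcodes, so both kinds of cell were thinned to 2000 UMIs. Krt18 then had a UMI in 98.3% of wild-type urothelial cells and 51.7% of wild-type immune-marked barcodes. For Krt4 these shares were 10.0 and 1.89%, for Krt20 9.21 and 0.758%, and for Krt23 5.37 and 1.33%. Krt13 had a UMI in 0.312% of urothelial cells and in 0 of 528 immune-marked barcodes, which allows a share of up to 0.568% (3 counts of the total), so its share cannot be told apart from the background. In the knockouts the Krt4 shares were 3.96% and 0 of 51 barcodes (up to 5.88%) for Lpar6, where the background could not be resolved, and 11.7 and 1.84% for Cab39l. Krt23 had the same limit for Lpar6, with 3.60% and 0 of 51 barcodes, and 4.91 and 0.461% for Cab39l. Krt18 had a UMI in 76.5 and 71.0% of the immune-marked barcodes of the Lpar6 and Cab39l knockouts, more than in wild type. By CPM, Krt18 in immune-marked barcodes was at 12.6, 21.9 and 22.3% of its urothelial level in the 3 libraries. Krt8 was at 14.7, 30.2 and 27.1%, Krt7 at 12.8, 13.3 and 14.7%, and Krt19 at 18.2, 18.3 and 28.9%. Tags of these 4 in nearly every urothelial cell therefore do not by themselves show expression in each cell.

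The type I and type II tags were close to balanced, with type I in excess. Type I keratins made up 54.9% of the members' UMIs in the wild-type library (54.8 to 55.0), 58.5% in the Lpar6 one (58.4 to 58.6) and 55.9% in the Cab39l one (55.8 to 56.0). Within the founding pair, Krt18 made up 67.1, 70.9 and 69.5% of Krt8 and Krt18 UMIs, a ratio of 2.04, 2.43 and 2.28 Krt18 tags per Krt8 tag. Krt7 supplied 63.9, 62.9 and 64.6% of the type II tags, and Krt19 supplied 40.5, 36.0 and 38.5% of the type I tags. When Krt5 and Krt15 were added to the sum, a choice made after the data were seen, the type I share was 58.3, 58.2 and 59.0%. The Lpar6 knockout then no longer had the highest share. Krt13 made up 1.71, 5.0 and 0.910% of Krt4 and Krt13 UMIs, so Krt4 tags were not matched by Krt13 tags in any library.

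The balance varied from cell to cell by more than counting allows. The Krt18 share of Krt8 and Krt18 UMIs had a median over cells of 66.0% in wild type, with the 5th and 95th percentiles at 50 and 78.3%. Its SD over cells was 8.77 percentage points, against 5.53 from counting alone. The SD was 6.41 points against 4.68 for the Lpar6 knockout and 6.26 against 4.65 for the Cab39l knockout. The type I share of the members had SDs of 6.86, 5.38 and 5.58 points, against 3.92, 3.62 and 3.44 from counting. The wild-type cells were the most spread on both measures. They also had the lowest median depth and the highest mitochondrial share, and the part of these in the spread was not tested.

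**Figure D2:**
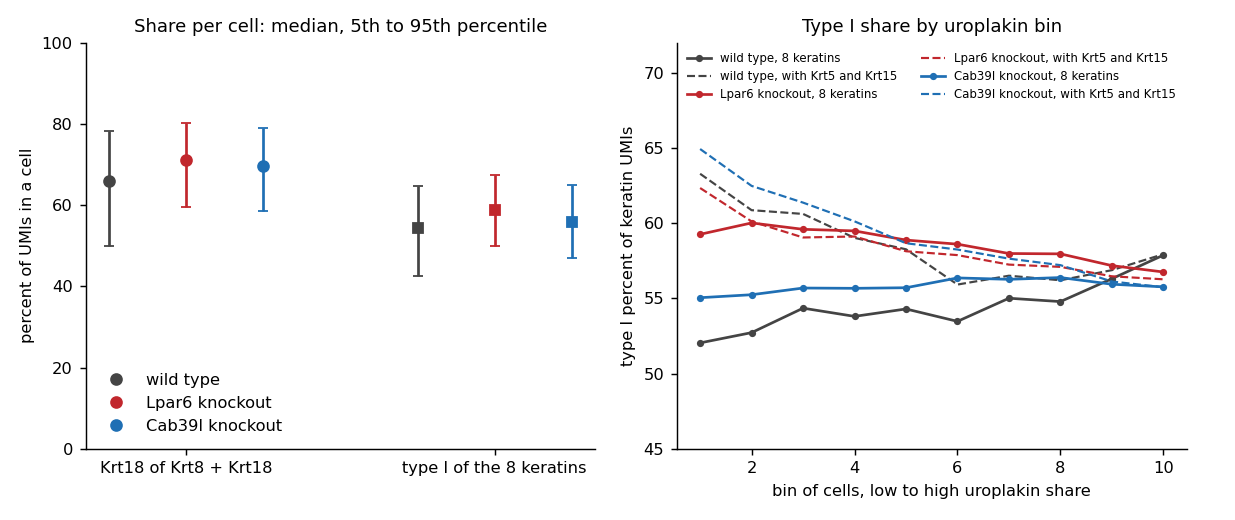
Left, the share of Krt18 in Krt8 and Krt18 UMIs (circles) and of type I keratins in the members' UMIs (squares) per cell, as the median with bars from the 5th to the 95th percentile; right, the type I percent of UMIs in 10 bins of cells by uroplakin share, over the 8 keratins (solid) and with Krt5 and Krt15 added (dashed), on an axis that starts at 45%. Wild-type cells of the lowest bin have 52.0% type I tags among the 8 keratins and 63.3% with Krt5 and Krt15.

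The abundant keratins varied together over cells, in pairs of both kinds. Over cells, with counts thinned to 10000 UMIs, the 4 pairs of a type I with a type II keratin among Krt7, Krt8, Krt18 and Krt19 had median Spearman correlations of 0.27, 0.27 and 0.26 in the 3 libraries. The 2 pairs of the same type had 0.28, 0.23 and 0.19, so the median of the mixed pairs was higher in the knockouts and not in wild type. Krt8 with Krt18 had 0.28, 0.31 and 0.32, and Krt7 with Krt18 had 0.32, 0.38 and 0.31. Krt7 with Krt8, both type II, had 0.31, 0.30 and 0.24. In the knockouts that pair was above the mixed pairs Krt7 with Krt19 (0.22 and 0.18) and Krt8 with Krt19 (0.22 and 0.21). Krt18 with Krt19, both type I, had 0.24, 0.16 and 0.14. Krt4 ran against Krt18 at -0.15, -0.11 and -0.20, and Krt4 with Krt13 was at -0.004, -0.005 and -0.01. These describe 2887, 4670 and 5171 cells that share a library, and counting noise lowers every value.

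The members differed in how unevenly they were spread over cells. Krt7, Krt8, Krt18 and Krt19 had variance to mean ratios of 1.96 to 4.07 in thinned counts, where counting alone gives 1, and the highest value was Krt18 in wild type. Genes within 1.5-fold of the same mean had median ratios of 3.74 for Krt18 and Krt7 in wild type, where these members had 4.07 and 2.58. In the knockouts such genes had 2.05 and 1.90 beside 2.71 and 2.50 for Krt18, and 1.69 and 1.81 beside 2.55 and 2.52 for Krt7. Krt7, which had 21 to 24 UMIs in the median cell, had a coefficient of variation of only 33.1, 34.7 and 31.9%. Krt4 was concentrated in few cells, with ratios of 5.18, 7.22 and 4.98. The top 5% of cells held 53.2, 77.3 and 46.9% of the Krt4 UMIs, and single cells reached 29, 34 and 25 of 10000. For Krt23 the top 5% held 52.5, 49.9 and 59.2%, and for Krt20 32.4, 33.5 and 40.6%, with variance to mean ratios of 1.66, 1.49 and 1.48. Genes within 1.5-fold of the mean of Krt4 had median ratios of 1.06, 1.02 and 1.04.

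Some members were higher in cells with more uroplakin and others were not. Spearman correlations over cells with the sum of Upk1a, Upk1b, Upk2 and Upk3a were 0.47, 0.28 and 0.33 for Krt18 in the wild-type, Lpar6 knockout and Cab39l knockout libraries. Krt8 had 0.31, 0.23 and 0.24, Krt7 had 0.24, 0.19 and 0.15, and Krt20 had 0.10, 0.11 and 0.13. Krt4 was negative, at -0.21, -0.18 and -0.19, and Krt23 was weakly negative, at -0.07, -0.06 and -0.06. Krt19 differed between libraries in sign, at 0.19, -0.10 and 0.07. Krt13 lay between -0.05 and -0.02. Krt15, for scale, had -0.53, -0.40 and -0.60. The rule that chose the cells set a minimum on the uroplakins, so the lowest part of the range is missing. The uroplakin sum had 0.39, 0.17 and 0.32 with the depth of the cell before thinning, and Krt18 had 0.37, -0.03 and 0.20. The part of depth in the keratin values was not tested.

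**Figure D3:**
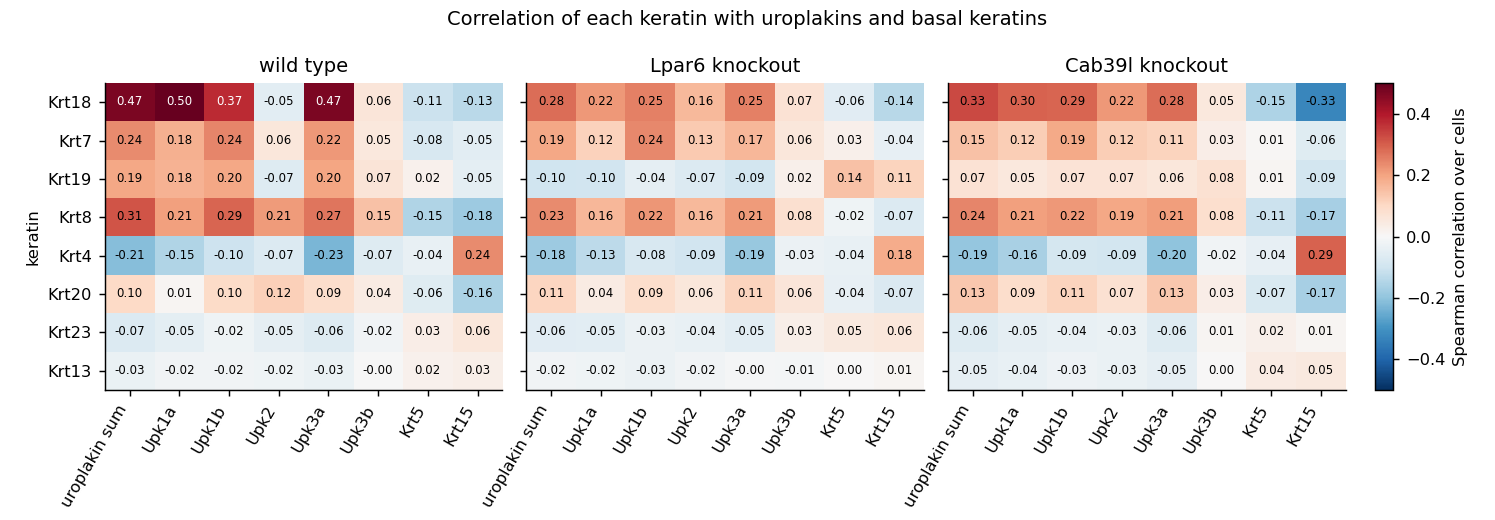
Spearman correlation over urothelial cells between each keratin (rows) and the uroplakin sum, 5 single uroplakins, Krt5 and Krt15 (columns), on counts thinned to 10000 UMIs per cell, 1 panel per library, red for positive and blue for negative. Krt18 and Krt8 are the most positive with the uroplakin sum and Krt4 is the most negative, while Krt4 is positive with Krt15.

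The wild-type library departed from the knockouts in how Krt18 related to single uroplakins. Krt18 with Upk1a had 0.50 in wild type, against 0.22 and 0.30, but with Upk2 it had -0.05, against 0.16 and 0.22. Upk1a with Upk2 themselves had only 0.14 in wild type, against 0.42 and 0.52. In the same library Upk2 had a correlation of 0.52 with the mitochondrial share of the cell (0.11 and 0.13 in the knockouts) and Krt18 had -0.37 (-0.12 and -0.08). The part of the mitochondrial share in these differences was not tested. Krt19 had -0.31 with the depth of the cell in the Lpar6 knockout, the library where it was negative with the uroplakins, against 0.05 in wild type and -0.13 in the Cab39l knockout.

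Levels in 10 equal bins of cells, ordered by uroplakin share, showed the size of these trends. Krt18 went from 1806 CPM in the lowest bin to 3703 in the highest in wild type, from 2247 to 3478 without Lpar6 and from 2407 to 3468 without Cab39l. Krt20 went from 34.8 to 68.1, from 30.5 to 61.1 and from 19.9 to 48.1 CPM, a ratio of 1.96, 2.0 and 2.42. Krt4 went the other way, from 137 to 25.5, from 71.8 to 7.92 and from 177 to 31.8 CPM, a ratio of 5.37, 9.06 and 5.58 between the lowest and the highest bin. Krt23 also went down, from 45.1 to 20.3, from 23.9 to 8.69 and from 33.6 to 16.8 CPM. Krt8 was 1.60, 1.49 and 1.42 times as high in the highest bin as in the lowest, and Krt7 1.33, 1.40 and 1.22 times. Krt19 differed little between the ends in the Cab39l knockout, from 1713 to 1735 CPM with a peak of 1983 in the 7th bin, and was lower in the highest bin than in the lowest in the Lpar6 knockout, at 1539 against 1734. Over all keratins the sum stayed between 9271 and 10378 CPM across the wild-type bins, while Krt15 went from 2851 to 196 CPM. Median depth was also higher in the highest bin than in the lowest, at 33232.5 against 17573 UMIs in wild type. It was 26223 against 21236 in the Lpar6 knockout and 33983 against 18102 in the Cab39l knockout.

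**Figure D4:**
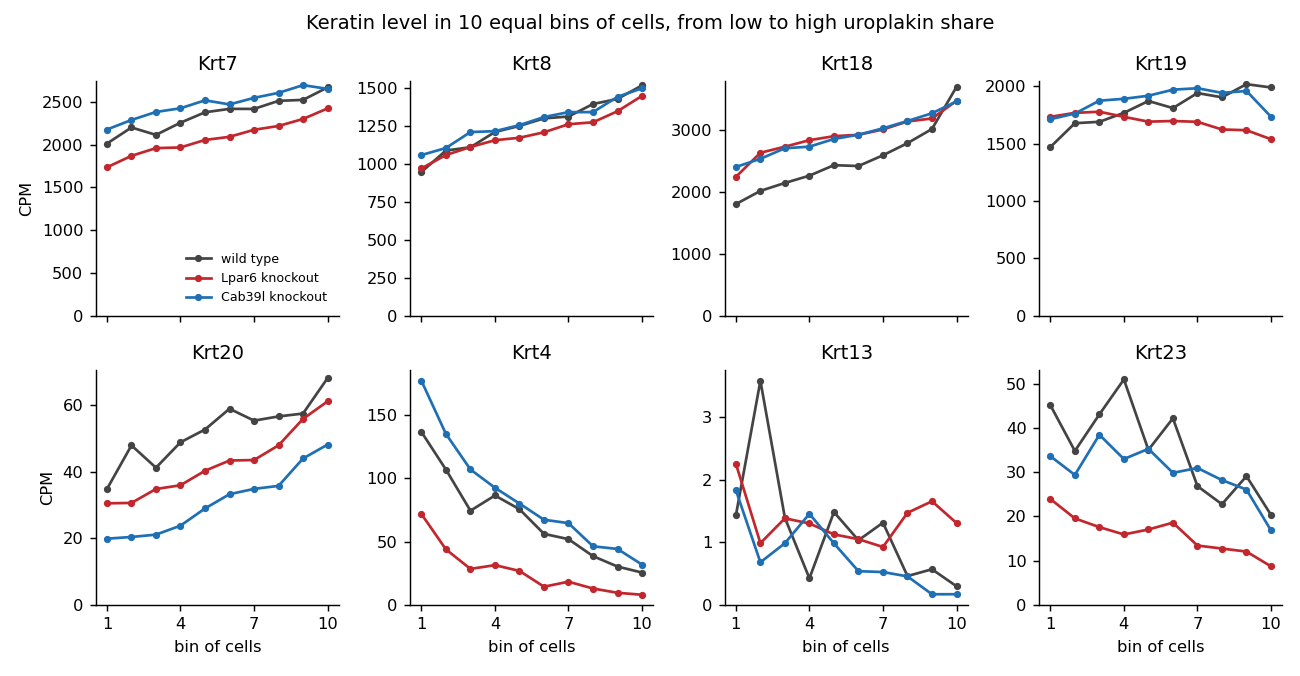
CPM of each keratin in 10 equal bins of urothelial cells, ordered from the lowest to the highest uroplakin share within each library (horizontal axis), 1 panel per keratin with its own vertical axis from 0. Krt18, Krt8, Krt7 and Krt20 are higher in the highest bin than in the lowest in each library, Krt4 and Krt23 are lower, and Krt13 rests on few UMIs per bin.

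Between the Lpar6 knockout and wild type, the members that stood apart were Krt4 and Krt23. Krt4 was 2.48-fold lower in the Lpar6 knockout (25.2 against 62.7 CPM, log2 -1.28) and Krt23 was 2.14-fold lower (15.7 against 33.7 CPM, log2 -1.05). A difference counts as called here when log2 of the CPM + 1 ratio passes 1.5-fold, for genes with at least 50 UMIs in all and 20 CPM in the higher library. By this measure 2 of the 7 members that passed the filter were lower and 0 higher, beside 31.2% of 5498 genes lower and 1.36% higher. Krt13 did not pass the filter, and its log2 value was 0.16. The share of members called lower is near that of all genes, but above that of genes of like transcript length, given below. Relative to the median gene, Krt4 was at -0.94 and Krt23 at -0.71, where 5.95% of genes were lower by 1.5-fold and 12.5% higher. Krt18 was at 0.17, Krt8 at -0.09, Krt19 at -0.13, Krt7 at -0.19 and Krt20 at -0.32 on the log2 scale, and relative to the median gene all of these 5 were above 0. The direction of Krt7, Krt8, Krt19 and Krt20 thus depends on the scaling, while Krt18 was above 0 on both scales and at -0.08 among cells with at least 1% uroplakin UMIs.

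That scaling matters because many genes were lower in both knockouts. Against wild type, the median gene stood at -0.34 for the Lpar6 and -0.31 for the Cab39l knockout. Genes whose longest transcript spans 1200 to 2600 bases, the range of 7 of the 8 members, had medians of -0.005 and 0.05. Of these, 73 of 1447 were lower by 1.5-fold or more in the Lpar6 knockout and 52 of 1458 in the Cab39l knockout. The longest Krt7 transcript has 4094 bases. After the trend of log2 with transcript length was taken off, Krt4 at -1.20 and Krt23 at -1.13 were still lower in the Lpar6 knockout. By that measure 116 of the 5498 genes were lower. The members' medians, over the 7 that passed the filter, were -0.19 and 0.03. Both comparisons share the wild-type library, so their values are not independent.

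In the Cab39l knockout, Krt20 was the 1 member called against wild type on the CPM scale. It was 1.67-fold lower than in wild type, at 32.1 against 53.6 CPM (log2 -0.72). It was the 1 member of 7 called lower, with 0 called higher, beside 32.9% of 5512 genes lower and 1.18% higher. Members were thus not called lower more often than all genes, though among genes of 1200 to 2600 bases 52 of 1458 were lower. Relative to the median gene Krt20 was at -0.42 and was not called. Krt4 was then called higher at 0.63 (0.32 before, 78.7 against 62.7 CPM), where 10.1% of genes were lower and 10.5% higher. Of the 1458 genes of 1200 to 2600 bases, 10 were lower and 290 higher relative to the median gene. On the CPM scale Krt18 was at 0.18, Krt7 at 0.07, Krt19 at 0.03, Krt8 at 0.01 and Krt23 at -0.17. Krt23 turned to 0.13 relative to the median gene. Krt13, below the filter, was at -0.28. After the length trend was taken off, 1 member, Krt20, was lower and 0 were higher, so Krt4 was not called. By that measure 120 of the 5512 genes were lower and 243 higher.

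The knockouts differed from each other in few genes. Against the Cab39l knockout, Krt4 was 3.12-fold lower in the Lpar6 knockout (log2 -1.60) and Krt23 1.89-fold lower (log2 -0.88). These were 2 of 7 members lower and 0 higher, where 0.635% of 4570 genes were lower and 0.547% higher, and the median gene was at 0.01. Relative to that gene the same 2 members were lower, beside 0.656% of genes lower and 0.525% higher. Krt20 was higher in the Lpar6 knockout by 0.41 on the log2 scale and was not called, and the 4 abundant members lay between -0.26 and -0.01. Krt15 was 5.40-fold lower and Krt5 1.73-fold lower in the Lpar6 knockout in the same comparison, so the basal keratins were lower together with Krt4 and Krt23.

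Cells were therefore also compared at like Krt15 and like uroplakin levels, ranges that were chosen after the data were seen. Only CPM was compared, and the median gene within each range was not taken. Cells with at least 20 Krt15 UMIs of 10000 made up 25.5% of wild-type, 3.92% of Lpar6 knockout and 28.1% of Cab39l knockout cells. Among cells with no Krt15 UMI, Krt4 was at 22.1 CPM in wild type, 15.3 without Lpar6 and 28.7 without Cab39l. In those with 1 to 4 it was at 43.3, 25.4 and 39.9 CPM, and in those with 5 to 19 at 78.1, 47.8 and 84.0. In the cells with 20 or more the order turned, with 123 CPM in wild type (118 to 128), 206 in 183 Lpar6 knockout cells (191 to 222) and 167 without Cab39l. So Krt4 was lower in the Lpar6 knockout in 3 of the 4 ranges and higher in the Krt15-rich one. Krt23 was lower than in wild type in the 4 ranges, at 13.7 against 28.5, 18.9 against 35.1, 18.2 against 29.8 and 37.5 against 44.1 CPM, with intervals that overlap in the last.

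**Figure D5:**
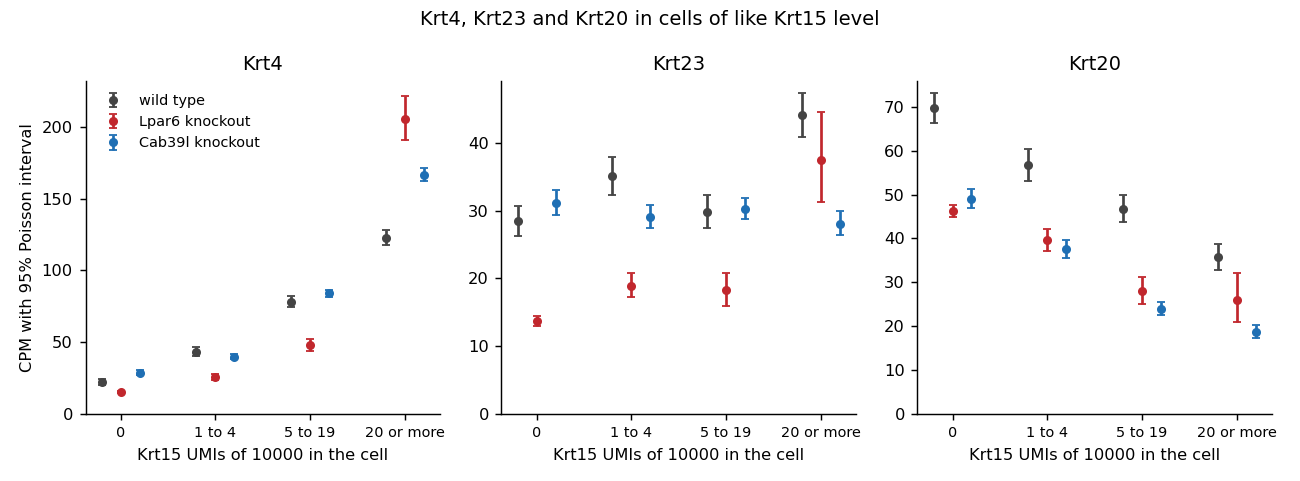
CPM of Krt4, Krt23 and Krt20 with exact 95% Poisson intervals in urothelial cells grouped by their Krt15 UMIs after thinning to 10000 (horizontal axis), by library, with each vertical axis from 0. Krt4 in the Lpar6 knockout is below the other libraries in the first 3 ranges and reaches 206 CPM in the last, while wild-type Krt20 is the highest in each range.

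At like uroplakin shares, Krt4 was lower in the Lpar6 knockout than in wild type in each of 4 ranges. The values were 102 against 122 CPM at 0.2 to 0.5% uroplakin UMIs, 35.9 against 64.5 at 0.5 to 1%, 13.3 against 29.7 at 1 to 1.5%, and 7.63 against 24.1 at 1.5% or more. At 0.2 to 0.5% the log2 value of Krt4 was -0.26, above the -0.34 of the median gene over all cells. Krt20 was lower in the Cab39l knockout than in wild type in every range of both kinds. By uroplakin share it was at 18.5 against 41.6, 25.3 against 52.3, 37.5 against 59.9 and 49.0 against 73.7 CPM. By Krt15 it was at 49.1 against 69.6, 37.6 against 56.7, 24.0 against 46.8 and 18.7 against 35.7 CPM. The ratio of wild type to the Cab39l knockout lay between 1.42 and 2.25 over these ranges, against 1.67 over all cells. Krt20 was lower than in wild type in each of these 8 ranges in the Lpar6 knockout as well, by ratios of 1.19 to 1.68. Its log2 value was -0.34 at 1 to 1.5% uroplakin UMIs, near that of the median gene over all cells. At 1.5% or more it was -0.25, with intervals that overlap. In cells with no Krt15 UMI, Krt20 was at 46.3 CPM in the Lpar6 knockout, below the 49.1 CPM of the Cab39l knockout.

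Genes that anchor, fold or control keratins were counted in the same way. Of 8 desmosome and plakin genes that passed the filter, 6 were lower by 1.5-fold in each knockout than in wild type and 0 higher, beside the 31.2 and 32.9% of all genes lower. Relative to the median gene 4 were lower in each, beside 5.95 and 10.1% of genes. Desmoplakin (Dsp), which ties keratin filaments to desmosomes, was at 159 CPM in wild type, 74.0 without Lpar6 and 68.6 without Cab39l, and dystonin (Dst), which ties them to hemidesmosomes, was at 145, 56.2 and 54.0. Ppl, Evpl, Dsg2 and Plec were the other 4. These transcripts are long, and after the trend of log2 with transcript length was taken off 0 of the 6 calls remained. Dsp then stood at -0.33 and -0.35, Dst at -0.46 and -0.36, and Plec at 0.04 and 0.00027. Of 8 keratin partners and chaperones, 0 were lower without Lpar6 and 1 was lower without Cab39l, the 14-3-3 gene Ywhaz, at 163 against 250 CPM. The heat shock genes Hspb1 (425, 398 and 472 CPM) and Hspa8 (891, 712 and 783 CPM) and the 14-3-3 gene Sfn (551, 521 and 515 CPM) were not called. Of 10 epithelial transcription factors, 7 were lower without Lpar6 and 4 without Cab39l, and 0 were higher, beside the same 31.2 and 32.9% of all genes lower. Relative to the median gene 1 and 2 were lower. Grhl2, Ehf, Rxra and Trp63 were called in both, and Elf3, Klf5 and Foxa1 in the Lpar6 knockout. After the length trend was taken off, Rxra stood at -0.001 and 0.04 and Trp63 at -0.08 and 0.005, and Elf3 at -0.61 in the Lpar6 knockout was the 1 call left. Ehf, an ETS factor of epithelia, was at 230, 126 and 113 CPM, and Gata3, the most abundant of the list, was at 536, 374 and 364 CPM and was not called. Of the 2 basal keratins that passed, both were lower without Lpar6 and 0 without Cab39l. Of 5 uroplakins, Upk1a (1829, 2764 and 2856 CPM) was called higher and Upk2 (853, 539 and 566 CPM) lower in each knockout. Of all genes, 1.36 and 1.18% were higher and 31.2 and 32.9% lower. Relative to the median gene 3 and 2 uroplakins were higher, beside 12.5 and 10.5% of genes, and 0 were lower, so Upk2 was not called. After the length trend Upk1a stood at 0.48 and 0.51 and was not called, and 1 uroplakin was lower in each knockout. Between the knockouts, 0 of these genes were called apart from the basal keratins.

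The genes most like each member over wild-type cells were taken by Pearson correlation of log2 thinned counts, over 1921 genes with a mean of at least 0.5 UMIs in each library. The glutathione transferase Gsta4 came first for Krt7 in each library, at 0.34, 0.53 and 0.44. Among these 1921 genes, Krt15 came first for Krt4 in each library, at 0.25, 0.26 and 0.30. In wild type it was followed by Aldh3a1 (0.22, 0.16 and 0.18) and Cbr2 (0.22, 0.25 and 0.23). For Krt18 the leading genes in wild type were Upk1a (0.50, 0.23 and 0.29), Rpl3 (0.47, 0.03 and 0.06) and Upk3a (0.46, 0.32 and 0.29), so the likeness to Rpl3 was not seen in the knockouts. For Krt8 they were Psca (0.37, 0.13 and 0.25), Sfn (0.33, 0.28 and 0.32) and Akr1b3 (0.30, 0.28 and 0.29). Krt19 had Cd9 (0.25, 0.29 and 0.20), a tetraspanin, as its first gene in wild type, and Krt23 had Sfn (0.22, 0.07 and 0.23). Gsta4 was also among the leading genes for Krt19 in wild type and came first for it in the Lpar6 knockout (0.24, 0.43 and 0.24). Krt20 had weak values, led by Far1 (0.15, 0.05 and 0.10) and the lipid carrier Fabp4 (0.15, 0.13 and 0.20), and Fabp4 was first for Krt20 in both knockouts. For Krt13, which has too few UMIs for such a measure, the first gene was Hilpda at 0.07 in wild type. The gasdermin gene Gsdmc2 had 0.21, 0.40 and 0.24 with Krt4. At 14.4, 11.3 and 11.0 CPM, Gsdmc2 was too low to be among the 1921 genes. In the Lpar6 knockout its value was above that of Krt15, as was the 0.36 of Gsdmc3.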

How the data were processed

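The authors deposited raw counts of UMIs for each gene in each barcode, made with Cell Ranger 3.0.2 on mm10, per the submitters' processing notes. The sources used here do not name the annotation release. UMIs of the cells that met the rule were summed per library and scaled to CPM. Levels have exact Poisson and shares exact binomial intervals at 95%. Folds are log2 of CPM + 1 ratios, checked on simulated data. With 1 library per group, no test was run. Positions and lengths are from GENCODE vM21, where 30934 of 31053 gene identifiers were found. Promoters are from RefSeq. The named genes were the 8 members, the uroplakins, the most abundant or called genes of each list, and the 3 genes most correlated with each member. The members and lists were chosen with earlier results of these data known. Alternatives covered the cell rule, doublets, scaling, pseudocount, filter and correlation. Scrublet's own threshold marked 1, 2 and 0 cells and so had not worked, and the top 6% of scores were left out instead as an alternative. Ranges of Krt15 and of uroplakins and the share with Krt5 and Krt15 were added after the data were seen. Tools were Python 3.11.15, numpy 2.4.6, scipy 1.17.1, scanpy 1.11.5, R 4.3.3, edgeR 4.0.16 (TMM factors), DESeq2 1.42.0 (size factors) and matplotlib 3.10.9.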

Additional observations from a re-analysis of the deposited data

Results flagged for a closer look

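Krt4 and Krt13 were higher outside the urothelial rule than within it in the Lpar6 knockout. In the 3623 barcodes of that library that did not meet the rule, Krt4 was at 41.1 CPM (95% interval 37.5 to 44.9), against 25.2 CPM in the cells that met it. Krt13 was at 2.86 CPM there (1.98 to 3.99, from 34 UMIs), against 1.33 CPM. In wild type the same comparison gave 52.2 against 62.7 CPM for Krt4 and 0.389 against 1.09 CPM for Krt13, and in the Cab39l knockout 63.6 against 78.7 and 0.403 against 0.723 CPM. These barcodes hold fewer UMIs, more mitochondrial UMIs or fewer uroplakin UMIs than the rule allows, and they include immune-marked ones.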

How the results depend on the processing

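No paired analysis was possible because each group has 1 library, and for the same reason no library could be left out. Krt4 in the Lpar6 knockout stayed lower than in wild type under 17 alternatives, at log2 -1.41 to -0.90, and Krt23 at -1.13 to -0.68. Krt20 in the Cab39l knockout stayed lower at -0.75 to -0.35. The counts of members called moved as follows. For the Cab39l knockout against wild type, TMM factors, median-of-ratios size factors and the median gene each gave 0 lower and 1 higher. Uroplakins of at least 1% of UMIs gave 1 higher, and a 2-fold call gave 0 lower. Between the knockouts a 2-fold call gave 1 lower. TMM and median-of-ratios factors shift log2 values against wild type by 0.38 and 0.39 (Lpar6) and 0.39 and 0.38 (Cab39l). In cells with at least 20 Krt15 UMIs, Krt4 turned to 0.74 against wild type and 0.30 against the Cab39l knockout, and Krt23 to 0.40 against the Cab39l knockout. The type I share in wild type was 55.3% in cells of 20000 UMIs or more, 56.0% at 10% mitochondrial UMIs, 57.0% at 1% uroplakins, 54.3% with cells weighted alike and 54.3% thinned. In the Lpar6 knockout it was 57.7% at 1% uroplakins and 58.6% with cells weighted alike, and in the Cab39l knockout 56.1, 56.0 and, thinned, 56.1%. With Krt5 and Krt15 it was 58.3, 58.2 and 59.0%. The order of the libraries, with the Lpar6 knockout highest, held under the alternatives other than that with Krt5 and Krt15, except that wild type stood above the Cab39l knockout at 1% uroplakins and at 10% mitochondrial UMIs (56.0 against 55.8%). Without the filter on low values, 16.7% of 19240 genes were lower in the Lpar6 knockout and 17.0% of 19408 in the Cab39l knockout. Correlations with the uroplakins of 0.1 or more in size kept their sign in every alternative run, and were lowest in size mostly at 1% uroplakins. There Krt18 had 0.30, 0.13 and 0.14 in wild type, the Lpar6 and the Cab39l knockout. Krt8 had 0.12, 0.14 and 0.08, and Krt7 had 0.09, 0.10 and 0.04. Krt20 had 0.03, 0.06 and 0.06, and Krt4 had -0.04, -0.05 and -0.05. Krt19 in the Cab39l knockout turned from 0.07 to -0.09. The cause of these shifts was not tested. Depth limits Krt13, with 83 to 169 UMIs.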
